A study of Homo sapiens with 2 samples.

Results

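Open chromatin at the keratin gene clusters was examined by ATAC-seq, an assay in which the Tn5 transposase cuts and tags accessible DNA. The members were the protein-coding genes of GENCODE on chromosomes 12 and 17 whose symbol is KRT followed by digits and an optional letter or number. The rule took 55 keratin genes of 19970 protein-coding genes of the autosomes and X. Chromosome 12 held 27 of them and chromosome 17 held 28. The cells were SUM159, an established triple-negative breast cancer line of the mesenchymal, claudin-low kind. Both cell populations were puromycin selected and expressed dCas9-KRAB, a Cas9 that cannot cut and carries the KRAB repressor domain, from the lentiviral vector pLV-KRAB. The No gRNA cells had this vector without a guide (the empty vector control), and the All gRNA cells also had 4 guides to the promoter of ZEB1, a transcriptional repressor of epithelial genes. With 1 library per group, the difference has no replicate check. No p-values are therefore given, and what is compared is a pair of libraries.

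Keratins are the intermediate filament proteins of epithelial cells. A type I (acidic) and a type II (basic) keratin pair to form each filament. The type II genes lie together on chromosome 12 and the type I genes on chromosome 17, except that KRT18, a type I gene, lies beside its partner KRT8 on chromosome 12. Simple keratins (KRT7, KRT8, KRT18 and KRT19) are typical of single-layered epithelium, basal keratins (KRT5, KRT14 and KRT17) of the basal layer of stratified epithelium, and hair keratins of the hair shaft. In breast, the simple keratins are used as markers of luminal cells and the basal ones as markers of basal cells.

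The simple keratins had peaks in both libraries, whereas most other keratins had none. A peak within 4000 bp of any annotated start site (the promoter window) was present at 18 of 55 keratins in No gRNA (32.7%) and at 15 in All gRNA (27.3%). For all protein-coding genes these shares were 74.3% and 73.9%. All 4 simple keratins had such a peak in both libraries. So did 2 of 3 basal keratins, KRT5 and KRT14, while KRT17 had no peak in either. Of 17 hair keratins, 4 had a promoter peak in No gRNA and 2 in All gRNA. The keratins had a median of 2 annotated start sites and 7098 bp of gene length, against 5 and 27476.5 bp over all genes. Windows differed between the classes too, with medians of 10 starts and 12179.5 bp for the simple keratins and 1 start and 6411 bp for the hair keratins. With 4000 bp around the main start alone, a window of equal size for each gene, 4 of 4 simple, 1 of 3 basal and 3 of 17 hair keratins had a peak in No gRNA, and 4, 1 and 2 did in All gRNA.

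Few keratins had a peak close to the main start, which is that of the Ensembl canonical transcript. Within 1000 bp of it, 7 keratins had a peak in No gRNA and 6 in All gRNA, against 62.9% and 61.8% of all genes. KRT7 and KRT18 were the simple keratins with such a peak in both libraries. No hair keratin had one in either library. Neither the promoter window nor the gene body held a peak of either list at 36 of 55 keratins, compared with 17.9% of all genes. Among the 9 keratins of the inner root sheath and companion layer of the hair follicle, only KRT75 had a peak. Of 11 keratins of suprabasal and stratified layers, only KRT10 and KRT78 did. Of 4 wound and stress keratins, which skin makes during repair, 3 had a promoter peak in No gRNA and 2 in All gRNA, with none at KRT6C. Of the 7 remaining keratins, KRT15 and KRT80 had promoter peaks in both.

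**Figure D1:**
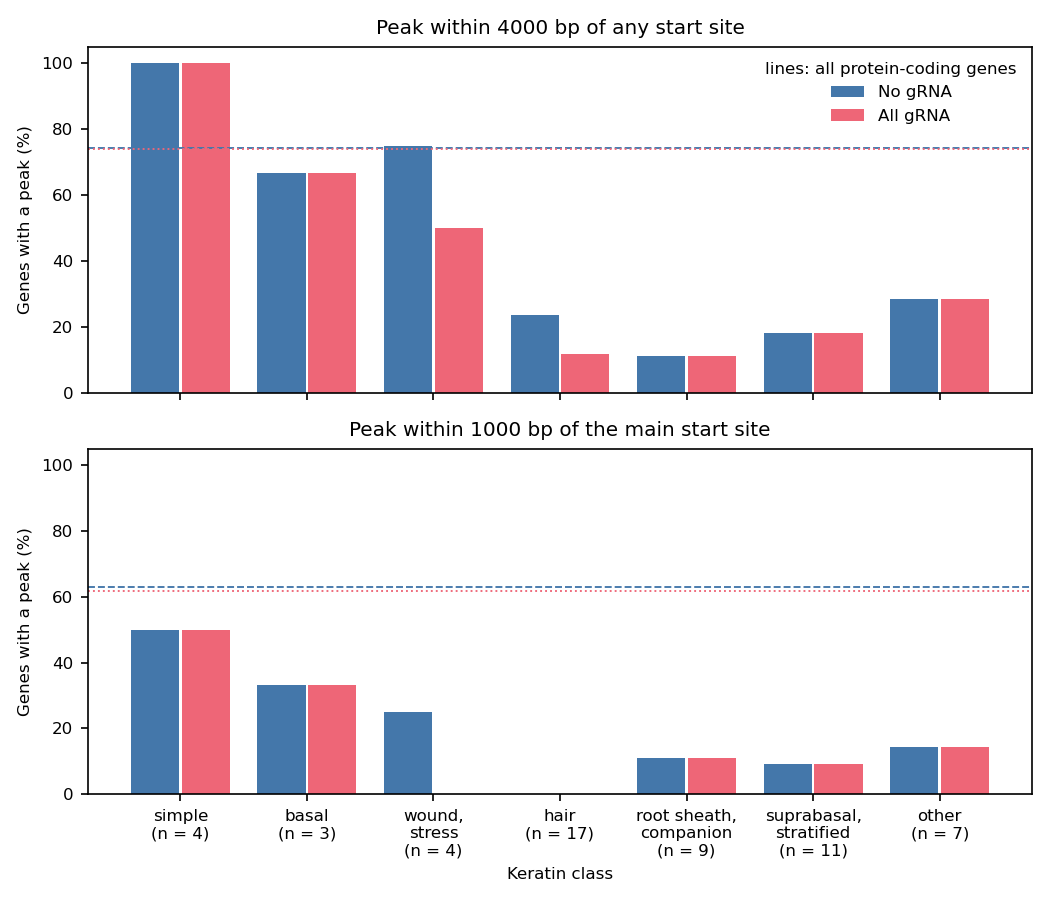
Percentage of genes in each keratin class with a peak within 4000 bp of any start site (top) and within 1000 bp of the main start site (bottom), in No gRNA (blue) and All gRNA (red), with dashed and dotted lines for all protein-coding genes. The 4 simple keratins all had a peak in the wide window, and the 17 hair keratins had none in the narrow one.

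Chromosomes 12 and 17 differed in how far from main starts their peaks lay. The same number of keratins had a promoter peak in No gRNA on both, 9 of 27 on chromosome 12 and 9 of 28 on chromosome 17. Within 1000 bp of a main start the counts were 6 and 1. On chromosome 12, 39 peaks of No gRNA and 37 of All gRNA lay between the outer ends of the first and the last keratin, over 783.9 kb, or 49.8 and 47.2 per Mb. The whole chromosome had 24.6 and 25.1 per Mb, and the flanks of equal length held 28 and 42 peaks in No gRNA, so the cluster lay between its flanks. On chromosome 17, the cluster of 970.2 kb held 20 and 15 peaks, or 20.6 and 15.5 per Mb, against 27.4 and 26.3 for the chromosome. Its flanks of equal length held 53 and 65 peaks in No gRNA. Peaks on chromosome 12 lay mainly from KRT80 to KRT86, from KRT75 to KRT5 and around KRT8 and KRT18, and a stretch of 158.2 kb with KRT72, KRT73, KRT2, KRT1 and KRT77 had no peak in either library. On chromosome 17 the longest such stretch was 238.8 kb and held KRT33A, KRT33B and 16 genes of keratin-associated proteins, which fill the space between hair keratin filaments. These genes were chosen by their place in the stretch after the peaks were seen.

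**Figure D2:**
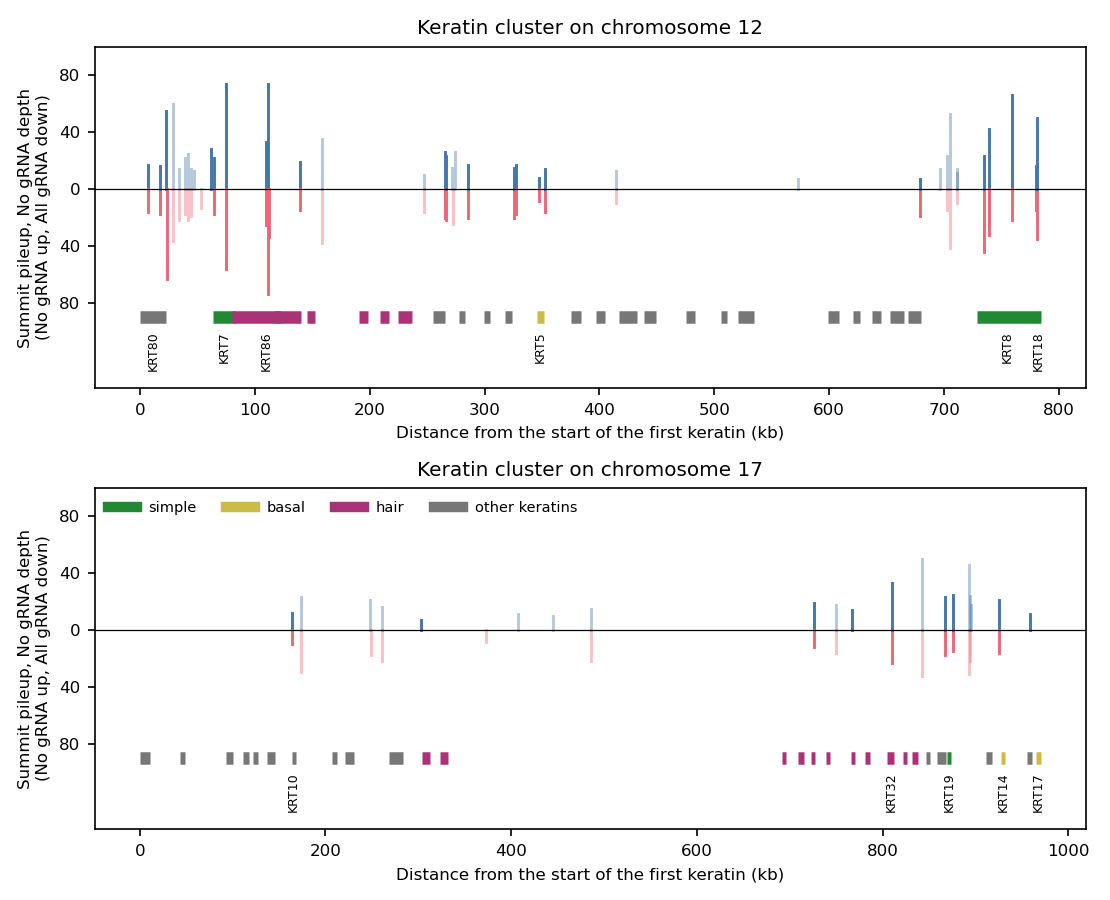
Peaks along the keratin clusters of chromosome 12 (top) and chromosome 17 (bottom), plotted against distance in kb from the first keratin, with the summit pileup of No gRNA upwards and that of All gRNA, divided by the depth ratio, downwards. Strong lines are peaks in keratin windows or bodies, pale lines are the other peaks, and the bars below mark keratin genes by class. Stretches of 158.2 kb on chromosome 12 and 238.8 kb on chromosome 17 hold no peak.

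The height of a peak is given below as its summit pileup, the number of extended read ends over the summit, worked out from the fold and p of the caller. The All gRNA library had fewer read ends left after filtering, here called its depth. Each ratio (All gRNA over No gRNA) was therefore scaled by the depth ratio of 0.743. Pairs of pileups give No gRNA first and All gRNA second, before scaling. Intervals are exact 95% binomial intervals for counting error only. Read ends may not be independent molecules, which was not tested. In all, 31 peaks of No gRNA and 30 of All gRNA lay in keratin windows or bodies. Their median pileup was 21 and 14.5, near the 19 and 14 over all peaks. Of the No gRNA keratin peaks, 13 had their summit in an intron, 6 in an exon, 10 upstream and 2 downstream of the gene.

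The sequences at the peaks that carry the comparison are shown as 121 bases of the forward strand of hg38 around the summit. They are the strongest KRT7 peak (chr12:52244278-52244398), the KRT7 peak found in No gRNA only (chr12:52230626-52230746), the KRT8 peak with the lowest ratio (chr12:52927549-52927669), the All gRNA summit of the peak between KRT8 and KRT18 (chr12:52949903-52950023), the All gRNA summit upstream of KRT19 (chr17:41530290-41530410), the KRT14 peak (chr17:41579718-41579838), the strongest hair keratin peak of chromosome 17 at KRT32 (chr17:41464942-41465062) and the KRT16 peak found in No gRNA only (chr17:41613033-41613153). Where All gRNA is not named, the summit is that of No gRNA. Capitals mark the E-boxes CAGGTG and CAGCTG and the AP-1 motif TGANTCA on either strand. The motifs shown depend on the summit taken. Within 100 bp, the No gRNA summit upstream of KRT19 had none of them. The All gRNA summit of the strongest KRT7 peak had TGANTCA but no CAGGTG.
KRT7 internal start: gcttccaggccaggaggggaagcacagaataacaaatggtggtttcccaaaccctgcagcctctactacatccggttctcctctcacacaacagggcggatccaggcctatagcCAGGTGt
KRT7 upstream: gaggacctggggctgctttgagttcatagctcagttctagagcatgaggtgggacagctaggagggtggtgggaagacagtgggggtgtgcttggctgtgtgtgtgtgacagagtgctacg
KRT8 distal intron: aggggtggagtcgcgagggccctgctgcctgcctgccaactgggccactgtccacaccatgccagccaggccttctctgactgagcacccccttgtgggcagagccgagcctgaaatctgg
KRT8 and KRT18: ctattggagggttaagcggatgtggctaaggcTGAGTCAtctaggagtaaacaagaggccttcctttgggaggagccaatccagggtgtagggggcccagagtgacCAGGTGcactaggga
KRT19 upstream: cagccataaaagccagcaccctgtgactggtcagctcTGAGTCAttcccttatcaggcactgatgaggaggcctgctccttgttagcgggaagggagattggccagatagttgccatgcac
KRT14 downstream: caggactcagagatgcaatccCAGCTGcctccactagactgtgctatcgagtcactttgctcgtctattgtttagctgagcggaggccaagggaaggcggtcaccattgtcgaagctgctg
KRT32 intron: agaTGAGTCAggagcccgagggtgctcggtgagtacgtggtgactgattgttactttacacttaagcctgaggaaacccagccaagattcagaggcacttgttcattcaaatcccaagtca
KRT16 upstream: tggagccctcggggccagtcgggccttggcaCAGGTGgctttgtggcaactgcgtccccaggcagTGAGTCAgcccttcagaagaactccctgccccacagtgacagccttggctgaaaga
The KRT8 distal and KRT7 upstream sequences hold none of these motifs in the bases shown. Beyond the bases shown, the KRT8 distal peak has CAGGTG at 86 bp from its No gRNA summit. The KRT16 sequence holds both CAGGTG and TGANTCA. Its label means upstream of the main start, as its summit lay in an intron of KRT16.

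KRT7, a type II keratin of ducts and glands, had the highest keratin pileup shared one-to-one. Its strongest peak (chr12:52243993-52244541) lay in an intron 11095 bp downstream of the main start and 40 bp from an internal start. Its pileups were 74 (No gRNA) and 42 (All gRNA), a ratio of 0.764 (0.510 to 1.13). The peak at the main start had 22 and 13, a ratio of 0.795 (0.368 to 1.65). Another peak (chr12:52230510-52230810), 2557 bp upstream of the main start, had a pileup of 28 and a −log10 q of 16.4 in No gRNA and was not called in All gRNA. At the All gRNA depth 28 corresponds to 20.8, and peaks of similar background were called there from a pileup of 9. Both shared KRT7 peaks were lower in All gRNA with intervals that include 1.

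KRT8, the type II partner of KRT18, had peaks that moved in both directions. In an intron of its longest transcripts, 22533 bp upstream of the main start, a peak (chr12:52927296-52927825) had pileups of 66 and 16. The ratio was 0.326 (0.176 to 0.570), the lowest of the keratin peaks and the only one past 2-fold lower. The authors' fold enrichment, which is relative to the local background, was 15.4 and 8.17 there, a ratio of 0.532. The local background was 3.36 in No gRNA and 1.08 in All gRNA. The peak near the main start (chr12:52903559-52903779), 1438 bp downstream of it and 10 bp from an internal start, went the other way, with 23 and 33 and a ratio of 1.93 (1.10 to 3.44). A peak 2969 bp upstream of the main start had 42 in No gRNA and was split into peaks of 24 and 18 in All gRNA.

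KRT18, the type I partner of KRT8, had a low peak at its main start (chr12:52949037-52949260) with pileups of 16 and 11 and a ratio of 0.925 (0.388 to 2.12). A stronger peak (chr12:52949814-52950210) lay 889 bp downstream of that start and also 53 bp from the most distal start of KRT8, which is transcribed in the opposite direction. Its pileup was 50 and 26, a ratio of 0.700 (0.418 to 1.15). Both peaks belonged to the windows of both genes, and ATAC-seq has no strand to assign them to one. KRT19, the smallest type I keratin, had its peak (chr17:41530273-41530622) 2125 bp upstream of the main start, with 25 and 11 and a ratio of 0.592 (0.263 to 1.25). Its window also took in a peak at an internal start of KRT15 (chr17:41521743-41522106), with 23 and 13 and a ratio of 0.761 (0.354 to 1.57). KRT15 is a type I keratin of basal cells. Of the 7 peaks of the simple keratins shared one-to-one, 6 were lower in All gRNA, with a median log2 ratio of -0.39. Over the genome 58.1% of such peaks were lower. The split KRT8 peak is not among the 7, and its higher All gRNA pileup gave a ratio of 0.769 (0.445 to 1.30).

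The basal keratins had weaker peaks. KRT5, the type II keratin of basal cells, had pileups of 14 and 12 at a peak 1089 bp upstream of the main start (chr12:52521390-52521639), a ratio of 1.15 (0.487 to 2.69). Its internal peak had 8 and 6, the lowest sum of the shared keratin peaks, with summits at 4136 and 3836 bp from the main start. KRT14, the type I partner of KRT5, had 21 and 12 at a peak beyond its 3′ end (chr17:41579636-41579954), 7117 bp from the main start and 3677 bp from an internal one, a ratio of 0.769 (0.345 to 1.64). KRT17, a type I keratin of basal and injured epithelium, had none, and 89.3% of the 64-base words within 1000 bp of its main start occurred once in hg38. The median log2 ratio of the 3 basal peaks was 0.01. It is the value of the weak internal KRT5 peak, whose ratio was 1.01 (0.289 to 3.32). All 3 basal intervals include 1 and are wide.

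**Figure D3:**
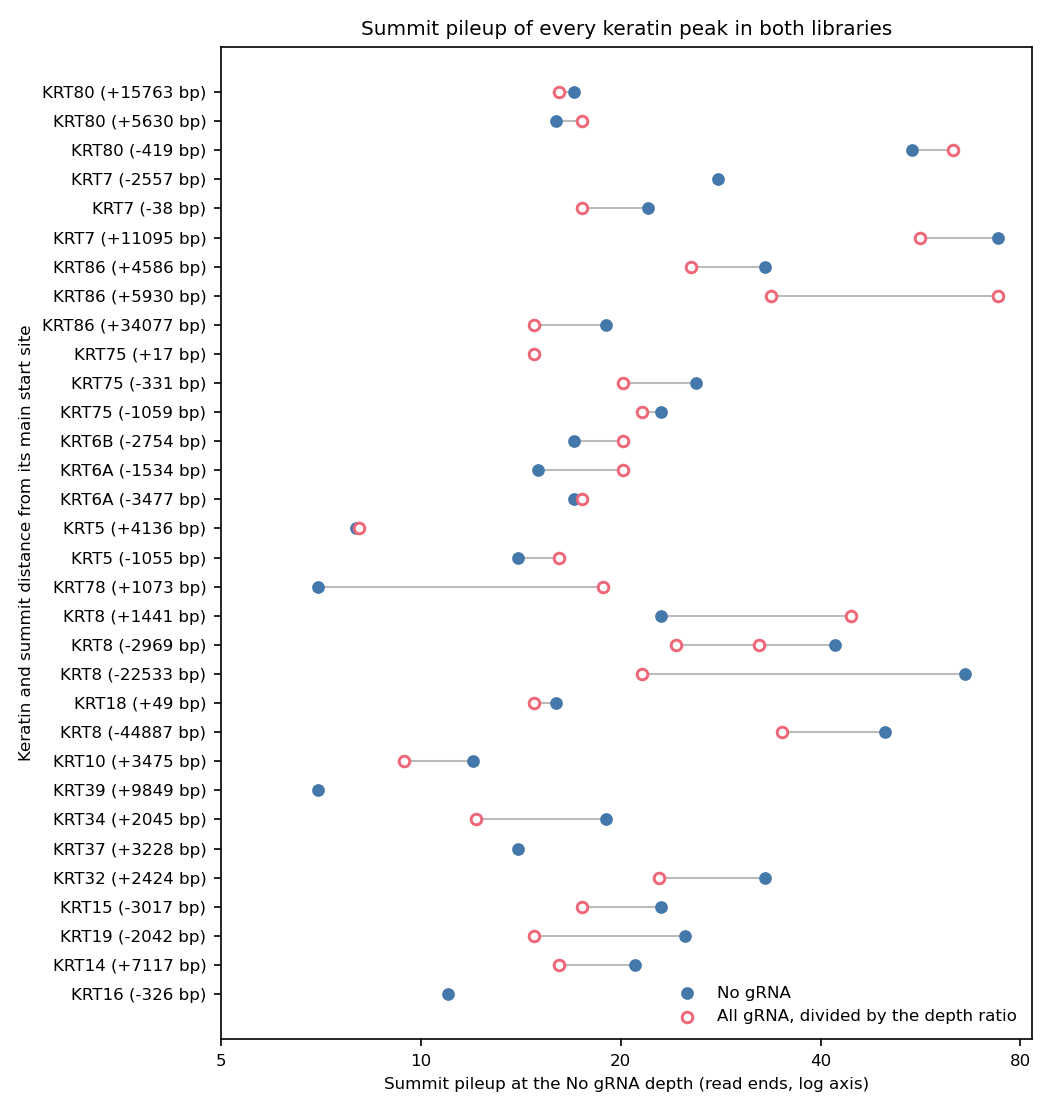
Summit pileup, on a log axis at the No gRNA depth, of each of the 32 regions with a keratin peak in either library, labelled with the keratin and the distance in bp of the summit from its main start. Filled points are No gRNA, open points are All gRNA divided by the depth ratio, and rows with 1 point are peaks of 1 library; the simple keratins and KRT86 and KRT80 reach the highest values.

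Hair keratin peaks lay away from the main starts, in gene bodies except at KRT39, whose peak was downstream of the gene. KRT32, a type I keratin of the hair cuticle, had 33 and 17 in an intron 2384 bp downstream of its main start (chr17:41464847-41465129), a ratio of 0.693 (0.362 to 1.28). KRT34 had 19 and 9, a ratio of 0.637 (0.254 to 1.48). KRT86, a type II hair keratin, held the strongest peaks of the class in its long body, which runs over KRT81. The first, of 33 and 19, lay 75 bp from the start of a lncRNA gene, and the second had 74 in No gRNA and was split into 55 and 25 in All gRNA. The last had 19 and 11. None of these was in the KRT86 promoter window. All 4 hair keratin peaks shared one-to-one were lower in All gRNA, compared with 58.1% of such peaks of the genome. Their ratios were 0.637 to 0.779, with a median log2 ratio of -0.45 and intervals that include 1. The split KRT86 peak is not among these 4. Its higher All gRNA pileup, 55, gave a ratio of 1.00 (0.692 to 1.44).

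Other named keratins had peaks as follows. KRT80, a type II keratin, had one of the stronger peaks 419 bp upstream of its main start (chr12:52191859-52192646), with 55 and 47 and a ratio of 1.15 (0.762 to 1.73). Pairs of 17 and 12 and of 16 and 13 lay in its introns. KRT75, a type II keratin of the companion layer, had 26 and 15 at 331 bp and 23 and 16 at 1022 bp upstream. KRT6B, a type II wound keratin, had 17 and 15 at 2741 bp upstream, and 84.2% of the 64-base words of its window and body occurred once in hg38. All 3 shared peaks of the wound and stress keratins were higher in All gRNA after depth scaling, with ratios of 1.03 to 1.35 and intervals that include 1. Of these, 2 were at 1 gene, KRT6A, which was named after its values were seen. For its window and body 90.4% of the words occurred once. By the authors' fold enrichment the ratio was 0.918 at KRT6B and 1.29 and 1.00 at KRT6A. The KRT10 peak, in its body and 6 bp from the start of KRT10-AS1, had 12 and 7. KRT10 is a type I keratin of suprabasal epidermis. The KRT78 peak had 7 and 14, a ratio of 2.69 (1.02 to 7.88), the only one past 2-fold higher, on low counts and with summits at 960 and 1073 bp from the main start.

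Most keratin peaks were called in both libraries. Of 31 No gRNA keratin peaks, 4 had no overlap in All gRNA, against 24.7% of all No gRNA peaks, and of 30 All gRNA keratin peaks 1 had none in No gRNA, against 23.8%. These 4 lay at KRT7, KRT37, KRT16 and KRT39. KRT37, a type I hair keratin, had a pileup of 14 and a −log10 q of 12.6 in an intron, and KRT16, a type I wound keratin, had 11 and 8.30 at 326 bp upstream of its main start. KRT39, a type I hair keratin that was named after its values were seen, had 7 and 4.15. At the All gRNA depth these equal 10.4, 8.17 and 5.20, and the lowest pileup called there at like background was 4. The single All gRNA peak without overlap lay at the main start of KRT75, with 11 and 4.68. At the level of genes, 3 keratins (KRT16, KRT37 and KRT39) had a promoter peak in No gRNA only, against 2.92% of all genes, and 0 in All gRNA only, against 2.56%.

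Over the 25 keratin peaks with 1 partner each, the median log2 ratio was -0.33, lower in All gRNA, against -0.11 over the 48041 such peaks of the genome. Of the 25, 16 were lower, or 64%, compared with 58.1%. Shared peaks with a summed pileup of 29 to 50, the middle range of the keratin peaks, had a median of -0.07. Past 2-fold with an interval that excludes 1 there was 1 keratin peak higher (2.44% of all shared peaks) and 1 lower (3.27%). The covered length of the promoter window was longer in All gRNA at 7 keratins (24.4% of all genes) and shorter at 11 (52.2%), with a median difference of -55.5 bp over the 18 covered in either library, against -71 bp. These shares are over all genes, covered or not. Any covered length was present at 18 of 55 keratins and at 15341 of 19970 genes. Covered length was not scaled for depth.

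**Figure D4:**
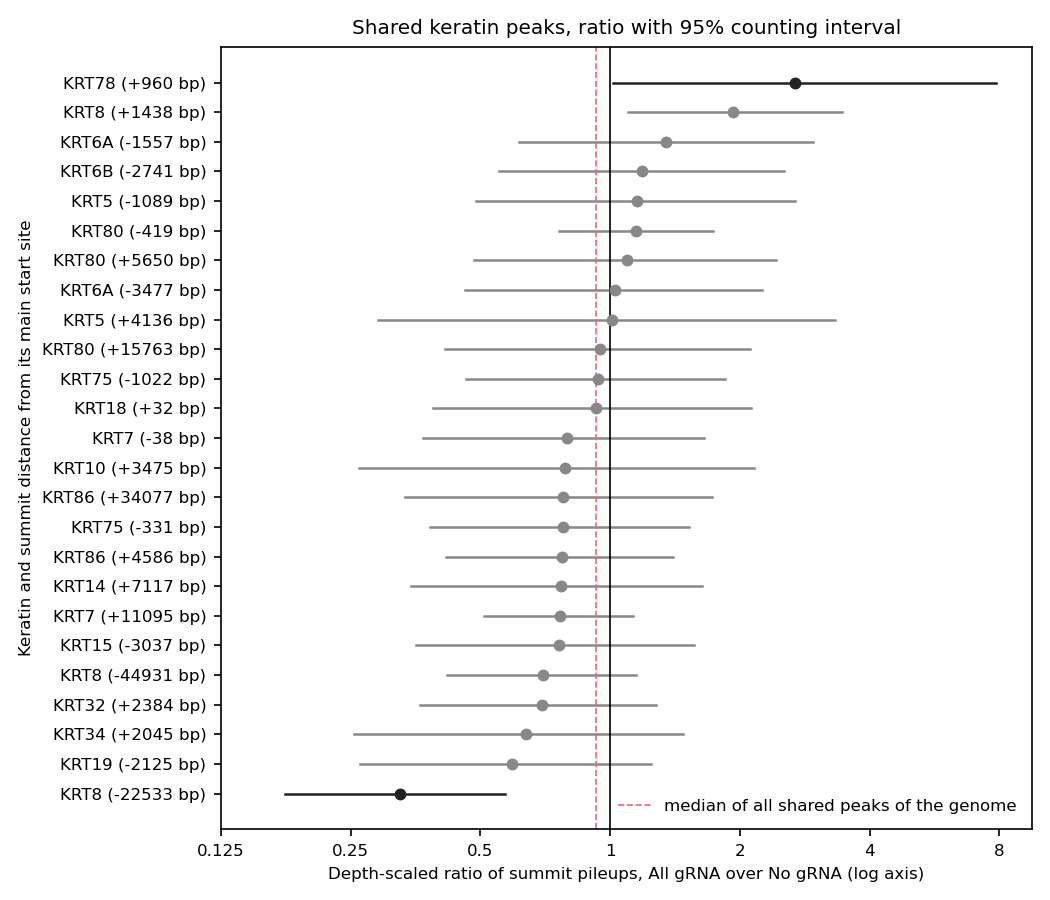
Depth-scaled ratio of summit pileups, All gRNA over No gRNA, on a log axis with exact 95% counting intervals, for the 25 shared keratin peaks, labelled with the keratin and the distance of the No gRNA summit from its main start. Black marks the peaks past 2-fold at KRT78 (2.69) and KRT8 (0.326), the solid line is a ratio of 1, and the dashed line is the median of all shared peaks.

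The DNA letters at the peaks were compared with those at all peaks of the same list. ZEB1 is known to bind E-boxes that include CAGGTG. Within 100 bp of the summit on either strand, CAGGTG was found at 10 of 31 No gRNA keratin peaks, 32.3%, against 11.6% of all peaks, and at 7 of 30 All gRNA keratin peaks, 23.3%, against 13.1%. CAGCTG, another E-box, was at 12.9% against 12.4% and 20% against 12.0%. TGANTCA, which can share letters with an adjoining CAGGTG, was at 32.3% against 30.3% and at 30.0% against 31.2%. The median GC content of these windows was 55.7% for keratins and 48.3% for all peaks of No gRNA, and 54.7% and 47.8% of All gRNA. Keratin peaks were thus richer in G and C, and its part in the share of CAGGTG was not tested. Peaks shared by the libraries enter both shares.

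The promoters themselves, from 250 bases before to 50 after the main start, differed by class. The keratins had a median of 3 CpG, against 23 over all protein-coding genes. KRT18 had 36, KRT7 29, KRT19 18 and KRT8 7. KRT17 had 12, KRT14 11 and KRT5 7, and the hair keratins a median of 2 with a range of 0 to 7. Keratins with a promoter peak in either library had a median of 6 and those without one of 2. The letters TATAAA were sought on the sense strand, starting at most 45 bases and ending more than 15 bases before the start. They were in 20 keratin promoters, 36.4%, against 4.00% of all, and in 8 of 17 hair keratins but none of the simple ones.

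Genes around the keratin system were counted the same way. Of 15 other intermediate filament genes, 10 had a promoter peak in No gRNA and 9 in All gRNA. VIM, the mesenchymal filament gene, had top pileups of 102 and 62, and DES, NEFL, NEFM and NEFH had no promoter peak. Of 8 plakins and keratin linkers, 6 and 7 had one. Of 8 transcription factors known at keratin genes, 7 and 7 did, with none at GRHL2, an activator of epithelial genes. Of the 34 keratin-associated protein genes on chromosome 17, 5 and 3 did (14.7% and 8.82%), and 1 did in both. Over all genes the shares were 74.3% and 73.9%. Neighbouring genes of this set shared peaks, KRTAP2-3 with KRTAP2-4 and KRTAP4-8 with KRTAP4-16 in No gRNA, and KRTAP1-5 with KRTAP1-4 in All gRNA. The peaks were therefore fewer than the genes. Of the cell type markers, the mesenchymal VIM, CDH2, FN1 and ZEB1 all had promoter peaks in both libraries. Of the epithelial CDH1, EPCAM, ESRP1 and CLDN4, 3 had one in No gRNA and 1 in All gRNA, with pileups of 7 to 17. In No gRNA these counts lie near the 74.3% of all genes and do not separate the lists. In All gRNA the share was 100% of the mesenchymal and 25% of the epithelial markers, against 73.9% of all genes, with 4 genes per list. The 2 epithelial markers with a promoter peak in No gRNA only, CDH1 and CLDN4, had low pileups of 7 and 12 there. Within 1000 bp of the main start, 4 and 3 mesenchymal markers and no epithelial one had a peak. Within 1000 bp of the main start of ZEB1, the targeted gene, 2 peaks were present in No gRNA and 0 in All gRNA.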

How the data were processed

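ATAC-seq peak lists of 2 SUM159 libraries, No gRNA and All gRNA, were analysed. Per the submitters' notes, the authors used fastp for trimming, Bowtie2 for mapping (hg38) and SAMtools to drop mitochondrial, excluded-region and duplicate reads, and ran MACS2 on each library alone, with no control. Handling of reads with several matches is not given in the sources used here. The deposited lists hold each peak's position, its fold enrichment (a ratio), −log10 p and −log10 q from the authors' MACS2 run. The deposited score was not used.

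The fold and −log10 p of a peak fix its summit pileup and local background, and both were computed. Pileups came out whole for 100% of peaks (relative tolerance 0.0001), and the method recovered 100% of 20000 simulated pileups per library. The genome-wide backgrounds, 0.652 and 0.484, give the depth ratio of 0.743. With a window of 200 bp, the shortest peak in both lists, the depths were about 8800000 (No gRNA) and 6540000 (All gRNA) read ends. At the stated window of 150 bp it was 11700000 and 8720000. The lists held 74757 and 75217 peaks, 67868 and 68238 on chromosomes 1 to 22 and X.

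Start sites were those of GENCODE release 44. Peaks were shared when they overlapped by at least 1 bp. Ratios used peaks with 1 partner in each list and carry exact Clopper-Pearson intervals. Named keratins were the simple and basal ones, those with a peak of −log10 q of at least 10, those with a peak of 1 library of at least 5, and those with a shared peak past 2-fold. Words of 64 bases were counted in hg38 as a check of unique sequence. Python 3 code with NumPy and SciPy was used. The members and lists were chosen with earlier results of these data known. Some sequences are not reported here.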

Additional observations from a re-analysis of the deposited data

How the results depend on the processing

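No paired analysis was possible because there was a single library in each group. Keratins with a promoter peak numbered 9 in No gRNA and 8 in All gRNA with a window of 1000 bp, against 18 and 15, and their order by library stayed the same under each alternative. Peaks of No gRNA only were 8 when at least 50% of both peaks had to overlap, 2 at a −log10 q of at least 10 and 2 with a promoter of 1000 bp plus gene body, against 4. Peaks of All gRNA only were 7 under the 50% overlap and 0 with a gap of up to 1000 bp, with a −log10 q of at least 5 and with one of at least 10, against 1. Under the 50% overlap the counts therefore nearly met, at 8 and 7. Scaling by the median ratio or a limit of 1.5-fold gave 2 higher shared peaks, against 1. Keratins with longer covered promoters were 4 at 1000 bp and 11 at 10000 bp, against 7, and those with shorter ones 5 at 1000 bp, against 11. The median log2 ratio lay between -0.36 and -0.22 under its 5 alternatives, 1 of which, adding split peaks, was chosen after seeing the data, as were leaving out the gene body of KRT86 and keeping the 48 keratins with at least 95% unique words, which left 15 and 13 with a promoter peak. Of 39 alternatives, 25 left a count within 1.5 times that of the main setting, or the median log2 ratio within 0.18 of it. That 0.18 is the log2 half-width of the counting interval of the summed pileups, and no interval was computed for the median. A reversal could be scored only for the 5 alternatives of the median, and none reversed it. The lowest pileup called at the genome-wide background was 5 in No gRNA and 4 in All gRNA, and the part of depth in the calls was not tested.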

Other observations

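Within the clusters, some peaks lay outside the keratin windows and bodies. There were 17 such peaks of No gRNA and 13 of All gRNA on chromosome 12, and 11 and 9 on chromosome 17. Beside KRT80, a type II keratin, the strongest had pileups of 60 (No gRNA) and 27 (All gRNA) and lay 6182 bp from the KRT80 start. A peak 25315 bp from the start of KRT78 had 53 and 31. Near KRT36, a type I hair keratin, a peak 4476 bp from its start had 50 and 24. Between KRT19 and LINC00974 a peak had 46 and 23. These 4 had the highest No gRNA pileups of such peaks and were chosen after the values were seen. Of 149 keratin pseudogenes across the genome, a peak lay in 4 (No gRNA) and 5 (All gRNA).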
